A study of Caenorhabditis elegans with 2 samples.

Results

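Histone genes encode the proteins that package DNA, and this account follows 72 of them in the nematode Caenorhabditis elegans through a map of APTF-2 binding. They were chosen by name, as the protein-coding genes of Ensembl release 115 called his- and a number, and are 72 of 19973 protein-coding genes. A gene counted as bound when the summit of a peak lay between 1000 bp upstream and 200 bp downstream of any of its annotated starts. By that rule 10 of the 72 genes were bound, through 6 distinct summits. Across all protein-coding genes, 3.15% were bound.

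APTF-2 belongs to the AP-2 family of transcription factors. Binding was measured by ChIP-seq, which sequences the DNA that an antibody pulls down from sheared chromatin, in whole young adults of 61.5 h and strain RW12304. These worms carry st12304[aptf-2::TY1::EGFP::3xFLAG] IV, a tag inserted by CRISPR into aptf-2 itself, and an anti-GFP antibody was used. The larvae had been synchronised by starvation after bleaching, and the 2 biological replicates form 1 group with no contrast. A whole animal mixes every tissue and a dividing germ line, so a site held firmly in few cells and one held loosely in many cannot be told apart. Everything rests on 1 tagged strain.

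Chromatin is built on a core of H2A, H2B, H3 and H4, with H1 outside it. Cells that copy their DNA need these proteins in bulk, and most of the genes for them sit in repeated clusters where an H2A gene faces an H2B gene, or an H3 gene an H4 gene, across a short shared promoter. Their mRNAs end in a stem-loop in place of a poly(A) tail. Replacement histones such as H3.3 are made outside replication from genes with ordinary messages.

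Peaks came from the authors' conservative list of 892 peaks from both replicates, and weaker ones from the ranked list behind it, with 94866 peaks. The signal given to each peak is a score whose scale the authors do not state, and sizes are compared only within a list. Each replicate also has its own lists, of 350 thresholded and 54777 ranked peaks for replicate 1 and of 403 and 51529 for replicate 2. Read counts were not analysed here, so the depth behind each value is unknown.

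Sequences from the facing promoters show what the bound and unbound pairs look like. The first 3 lines below belong to 1 family of H3-H4 promoters on chromosome IV, of which the first 2 held a summit of the conservative list and the third had no listed peak. The his-2/his-1 promoter is an H3-H4 promoter of another family, with a weaker peak only. The his-35/his-41 promoter, an H2A-H2B pair, shares the capital hexamer with the bound ones. It had no peak between its starts in the ranked list made from both replicates together. Replicate 1's own ranked list gave 15.1 there, and replicate 2's gave none. The last line is the whole conservative peak of the H2A-H2B pair his-61/his-62. Capitals mark GGGCGG and TATAAA on either strand. All were read from the RefSeq genome WBcel235, the same assembly as ce11, and the promoters are trimmed by 50 bp at each end and written with the H3 or H2A side first.
his-63/his-64: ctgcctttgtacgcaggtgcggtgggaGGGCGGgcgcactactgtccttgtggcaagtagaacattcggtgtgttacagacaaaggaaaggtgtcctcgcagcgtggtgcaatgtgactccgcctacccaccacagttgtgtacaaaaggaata
his-60/his-59: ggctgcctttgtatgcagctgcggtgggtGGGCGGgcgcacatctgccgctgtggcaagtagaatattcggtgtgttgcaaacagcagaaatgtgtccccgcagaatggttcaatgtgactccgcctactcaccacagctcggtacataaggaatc
his-46/his-45: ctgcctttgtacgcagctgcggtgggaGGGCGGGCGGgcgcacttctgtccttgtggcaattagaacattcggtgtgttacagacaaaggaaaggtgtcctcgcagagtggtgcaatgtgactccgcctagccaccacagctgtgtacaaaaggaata
his-2/his-1: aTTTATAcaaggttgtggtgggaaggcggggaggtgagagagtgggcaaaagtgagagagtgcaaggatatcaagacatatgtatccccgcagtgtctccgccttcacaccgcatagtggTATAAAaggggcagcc
his-35/his-41: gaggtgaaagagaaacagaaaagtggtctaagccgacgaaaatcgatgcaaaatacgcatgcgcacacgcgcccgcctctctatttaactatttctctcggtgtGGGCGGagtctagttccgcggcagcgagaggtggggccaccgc
his-61/his-62: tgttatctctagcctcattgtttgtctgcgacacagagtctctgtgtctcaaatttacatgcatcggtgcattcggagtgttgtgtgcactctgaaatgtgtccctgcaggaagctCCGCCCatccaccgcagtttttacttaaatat
They lie at chrIV:11406912-11407065 on the plus strand, chrIV:7488043-7488198 on the minus strand, chrIV:11326380-11326537 on the minus strand, chrV:16042334-16042469 on the plus strand, chrV:9545339-9545485 on the plus strand and chrIV:7486349-7486496 on the plus strand. The summit fell on base 82 of the his-63/his-64 line, base 114 of the his-60/his-59 line, base 59 of the his-2/his-1 line and base 85 of the his-61/his-62 line.

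The strongest histone site lay between his-63, an H3 gene, and his-64, the H4 gene facing it. Its signal was 251.2, the rank 68 of 892 in the conservative list. Replicate 1's own list gave 140.4 and replicate 2's gave 111.1. The peak covered chrIV:11406936-11407028, and its summit was 132 bp upstream of his-63 and 123 bp upstream of his-64. In this pair the signal stood highest near the middle of the shared promoter. A non-coding RNA gene, F22B3.19, is annotated across the same bases, at chrIV:11406887-11407033.

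The summit upstream of his-42, an H3 gene at the end of the chromosome II cluster, had a signal of 226.8. The replicates' own lists gave 79.1 and 135.9, so it was the highest of the histone sites in replicate 2 and the third in replicate 1. It was 632 bp upstream of his-42 and fell on an annotated snRNA gene, C47F8.9, and on the non-coding RNA gene R05D7.8. The bases within 100 bp of it had 20 copies in the genome, itself included, counting matches of at least 100 bp at 90% identity or more. Which gene, or which copy, the peak belongs to was not tested.

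The H2A gene his-61 and the H2B gene his-62 shared a summit with a signal of 189.8, of rank 118. It read 89 in replicate 1 and 102.5 in replicate 2, the second of the histone sites in replicate 1 and the third in replicate 2. The summit lay 216 bp upstream of his-61 and 112 bp upstream of his-62, with no similar copy of its surroundings. On chromosome I, the H4 gene his-67 and the H2A gene his-68 are the only pair of that kind, and their shared summit had a signal of 146.4. Replicate 1 gave 75.3 and replicate 2 gave 82.9. It lay 210 bp upstream of his-67 and 159 bp upstream of his-68, within chrI:9988825-9989120. The window of alg-5, which encodes an Argonaute protein, held the same summit 829 bp upstream of its start.

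The weakest of the 6 was shared by his-59, an H3 gene, and his-60, an H4 gene. Its signal of 78.3 ranked 782 of 892, with an IDR score, which measures how reproducibly a peak ranks, of 864 where the others had 1000. The ranked lists gave 40.4 in replicate 1 and 38.7 in replicate 2, and neither replicate's thresholded list held it. The authors' other thresholded list of both replicates, of 832 peaks, did not hold it either. The summit was 164 bp upstream of his-59 and 93 bp upstream of his-60. Just outside the list stood the top peak of his-66, with a signal of 76.3 and an IDR score of 790, so these sites were close in signal.

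The sixth summit belonged to the window of his-65, an H2A gene, but its position was unlike that of the other sites. It lay 726 bp upstream of his-65, beyond the facing H2B gene his-66, and 49 bp past the annotated end of that gene. There it fell on the stem-loop that ends the his-66 message, shown here because the summit is on it, with the loop in capitals.
his-66 stem-loop: ggccctCTTTagggcc
The stem-loop is at chrIV:11400364-11400379 on the minus strand, and the summit at base 11400366. The signal was 126.8, with 67.8 in replicate 1's ranked list and 61.8 in replicate 2's. Only replicate 1's thresholded list held it. Of 56 histone genes with such a stem-loop within 100 bp of their end, this was the only one with a conservative summit within 100 bp. A ranked summit lay there at 8, or 14.3%. The share over other stretches of that length was not counted, so these counts are not a trait of stem-loops. The bases within 100 bp of the summit had 4 similar copies, itself included.

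**Figure D1:**
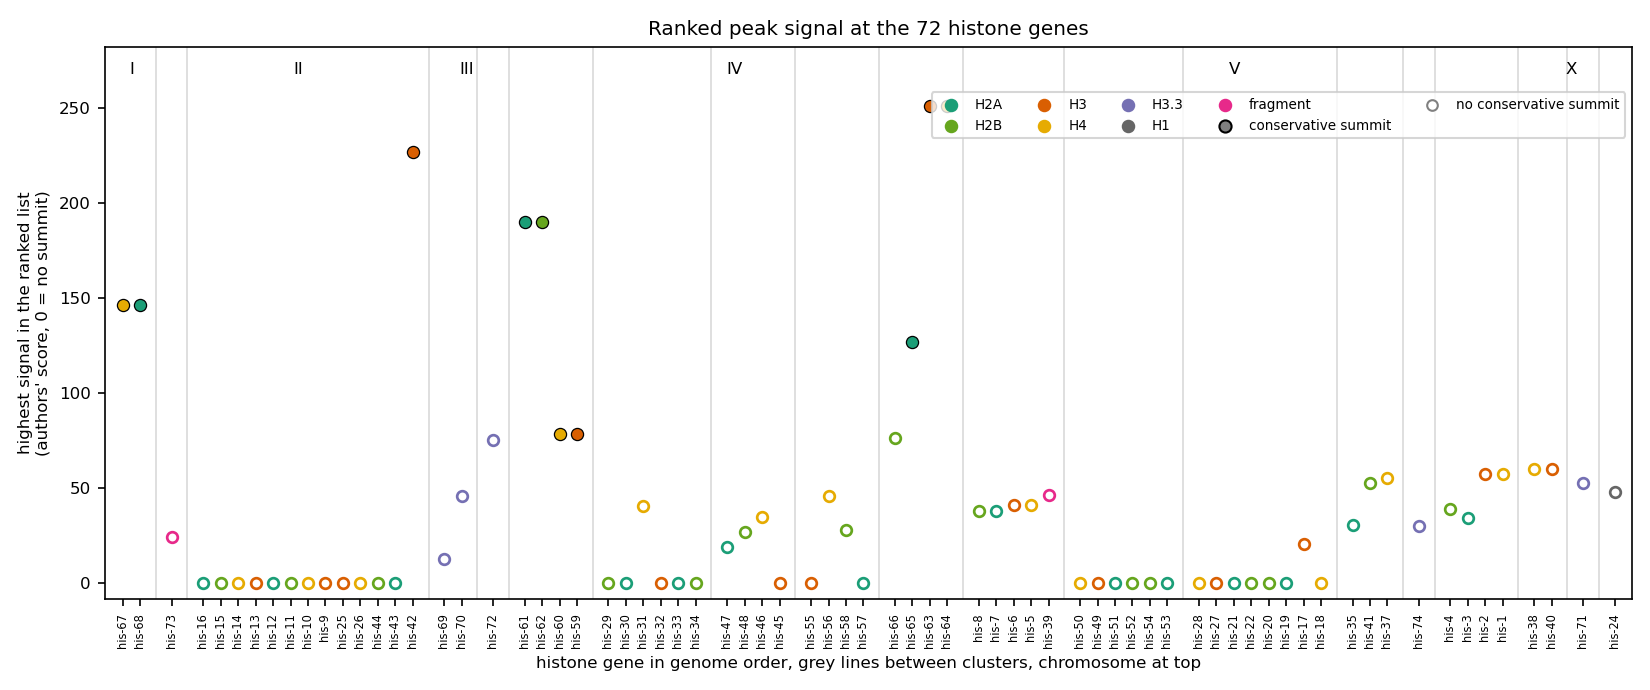
Highest signal in the ranked list (score, 0 where no summit lay in the window) for each of the 72 histone genes in genome order. Filled points had a conservative summit, colours give the histone type, and grey lines separate clusters. The filled points run from 78.3 to 251.2, and most genes of the long clusters on II and V sit at 0.

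Both replicates listed most of the strong sites. In replicate 1's thresholded list 9 of the 72 genes had a summit, beside 1.46% of all genes. In that of replicate 2 there were 7, beside 1.7%. The 7 genes his-42, his-61, his-62, his-63, his-64, his-67 and his-68 were bound in both. The H3.3 gene his-72 was the 1 gene listed in replicate 1 that the conservative list did not hold, with a signal of 46.5. Over the 30 genes with a ranked summit in both replicates there were 23 distinct pairs of values, since neighbours share peaks. Spearman's rho over these was 0.584 and Pearson's r of the log10 values 0.742, as a description. With weak peaks included, replicate 1 listed 36 of the 72 genes and replicate 2 listed 34.

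**Figure D2:**
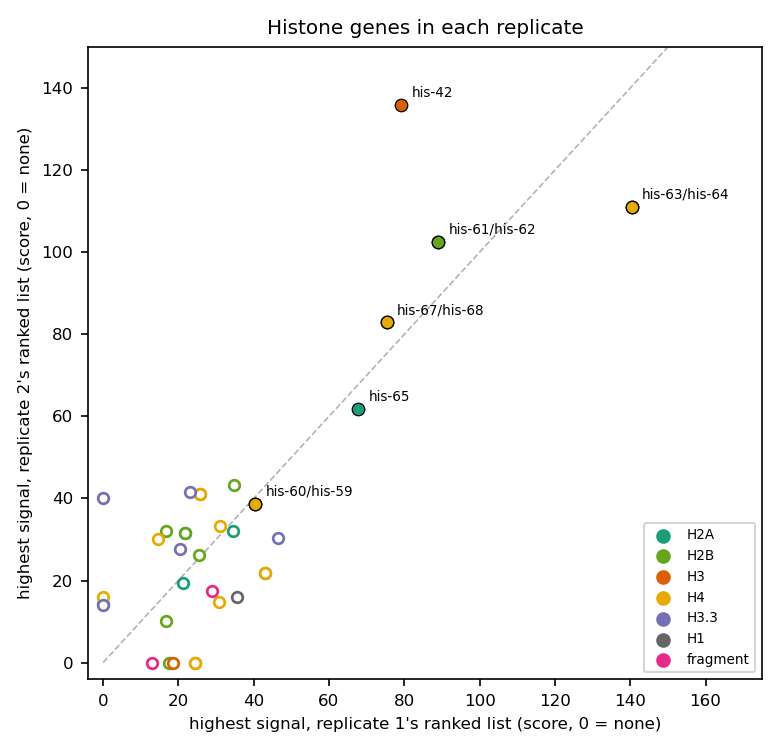
Highest signal of each histone gene in replicate 1's ranked list (horizontal) against replicate 2's (vertical), as scores with 0 for none. Filled points had a conservative summit. Except for his-60/his-59, which sit at 40.4 and 38.7, the filled points lie above all open ones in both replicates.

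Weaker peaks covered a smaller share of the family than of all genes. In the ranked list 39 of the 72 genes had a summit in the window, or 54.2%, and 33 had none. Of all protein-coding genes 75.1% had one. The median of the highest signal over all 72 genes was 22.6, beside 29.2 over all genes, and the median percentile was 37.8. Among the listed genes alone the order was the opposite, with a median of 47.9 beside 35.3. A signal of 100 or more was reached at 8 histone genes, or 11.1%, and at 2.05% of all genes. Besides the 10 bound genes and the 33 with no listed peak, 29 had a ranked peak only. Their signals ran from 12.9 to 76.3, with a median of 41.4.

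Sequence copies went with that split. The share of 50-base words in a promoter window that occur once in the genome had a median of 25.3% over histone genes, while the median window of all genes was wholly single-copy. Of 32 histone genes with 50% or more single-copy words, 31 had a ranked summit and 9 were bound. Among all protein-coding genes with such windows, 76.3% had a ranked summit and 3.2% were bound. The median signal of these 32 was 52.8, beside 29.6 for all such genes. Of 36 histone genes under 25%, 5 had a ranked summit, or 13.9%, and 1 was bound. Among all genes under 25%, 10.1% had a ranked summit. None of the 20 histone genes with no single-copy word had one. The same 32-gene count came from words of 36 and of 100 bases. How reads from repeated sequence were handled was not stated in the sources used here, and the part of sequence copies in which peaks were listed was not tested.

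**Figure D3:**
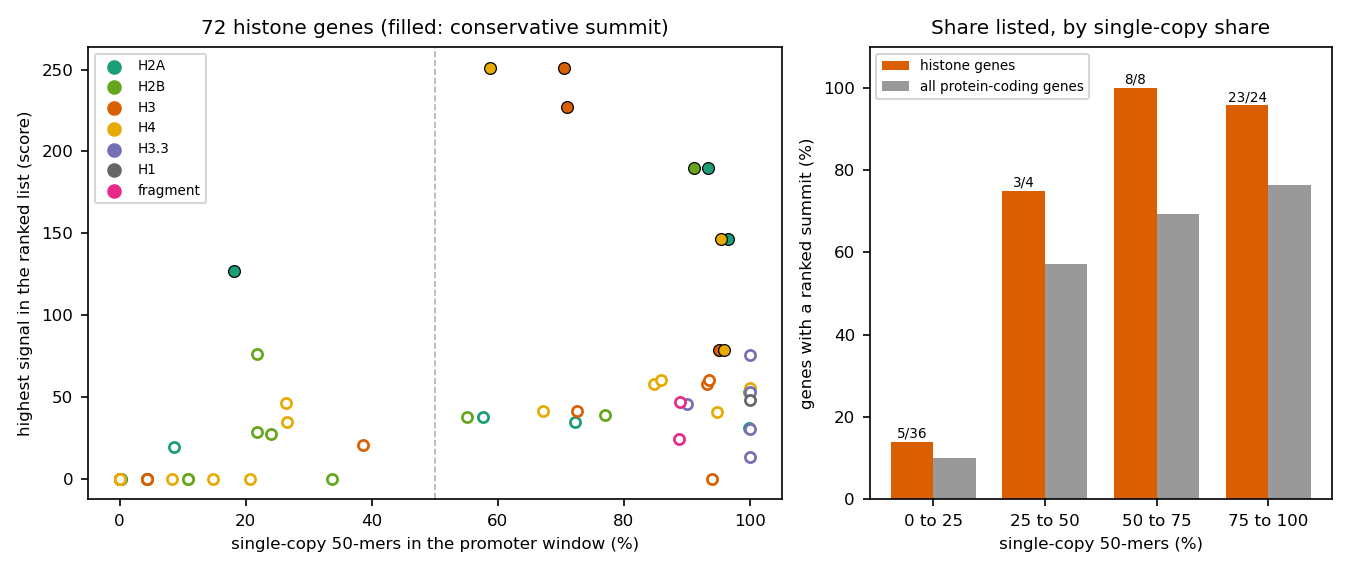
Left, the single-copy share of 50-mers in each histone promoter window (%) against the highest ranked signal (score), with filled points for conservative summits. Right, the percent of genes with a ranked summit in 4 bins of that share, for histone genes with their counts and for all protein-coding genes. Listing rises from bin to bin over all genes. For histone genes it runs from 5 of 36 through 3 of 4 and 8 of 8 to 23 of 24.

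Facing pairs hold most of the family. Of 1741 divergent protein-coding pairs with starts at most 1000 bp apart, 31 were pairs of histone genes, with 62 of the 72 members. A conservative summit lay in both windows at 4 of the 31, or 12.9%, beside 7.41% of all divergent pairs. All 4 summits lay between the starts, which was so at 6.66% of all divergent pairs. By kind they were 2 of 14 H3-H4 pairs, 1 of 16 H2A-H2B pairs and the single H2A-H4 pair. The other summits, of his-42 and his-65, lay outside a shared promoter. A ranked summit lay between the starts at 8 pairs. All 8 were among the 11 pairs whose start-to-start sequence was 50% or more single-copy, and none among the other 20.

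The bound H3-H4 promoters come from a family of 4 on chromosome IV. Besides his-63/his-64 and his-60/his-59 it holds his-46/his-45 and his-55/his-56, with 85% to 99.6% identity between start-to-start sequences. The his-63/his-64 promoter was 93.1% identical to that of his-46/his-45 and 85.5% to that of his-60/his-59. The his-63/his-64 promoter was 96.1% single-copy and that of his-60/his-59 wholly so, and both pairs without a peak between their starts were 23.9%. Closely related promoters thus had the strongest histone peak and no listed peak. In the H2A-H2B family on the same chromosome, his-61/his-62 was wholly single-copy and bound. It was less closely related to the others, with 79.2% identity to his-47/his-48, 72.8% to his-58/his-57 and 79.2% to his-66/his-65. Those pairs held no single-copy word between their starts and no peak there.

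A second H3-H4 family, of 6 pairs on V and X, held no conservative summit between its starts. Its strongest peak between starts was that of his-2/his-1, an H3 and an H4 gene, with a signal of 57.6. Replicate 1 gave 43.1 between the starts and replicate 2 listed none there. The his-6/his-5 pair had a signal of 41.4, at 11 bp from his-6, and was listed there in replicate 1 only. The his-38/his-40 pair on X was wholly single-copy without a combined peak between the starts, though replicate 2's own ranked list gave 25.4 there. Its highest signal in the window, 60.3, lay 173 bp inside the H4 gene his-38. The H2A-H2B family of 6 on V reached 37.9, at his-8/his-7. None of these 12 promoters held a conservative summit. Of all divergent pairs 6.66% had one between the starts, so none among 12 is near that share. Many of them were repeated sequence, where no histone pair had a listed peak between its starts. The H3-H4 pairs his-50/his-49, his-28/his-27 and his-17/his-18 were at most 1.08% single-copy there. The H2A-H2B pairs his-51/his-52, his-54/his-53, his-21/his-22 and his-20/his-19 had no single-copy word there. The rest were 85.6% or more single-copy. Whether the families differ apart from this was not tested.

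The hexamer GGGCGG, a GC box, differs between these families. Searched on both strands, it was in 10 of the 31 histone pair promoters, or 32.3%, beside 8.46% of 473 divergent promoters of 200 to 400 bp. All 4 bound pairs were among the 10, and none of the 21 pairs without it was bound. Only 6 of those 21 were 50% or more single-copy, and no histone pair under that share had a listed peak between its starts. The bound his-63/his-64 and his-60/his-59 promoters are 85.5% identical, and the motifs were chosen with earlier results known. Among the 11 single-copy pairs, 5 had it and 4 of those were bound; the exception was his-35/his-41. In the printed his-63/his-64 line it starts 54 bp from the summit, in his-60/his-59 84 bp, and in his-61/his-62 32 bp. Within 100 bp of the summit it was found at 4 of the 6 histone sites and at 11.5% of all 892 conservative summits.

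Other motifs were searched in the same way in the 300 bp around each start. GGGCGG was in 41.7% of histone promoters and 7.84% of all. TATAAA was in 65.3% and 38%, CCAAT in 54.2% and 45.7%, and GAGAGA in 45.8% and 21.8%. GCCNNNGGC, a palindrome known for AP-2 proteins of vertebrates, was in none of the 72 and in 1.28% of all. TATAAA was in 24 of the 31 pair promoters, 2 of them bound, and 2 of the 7 without it were bound. The bound pairs with it were his-61/his-62 and his-67/his-68. By family, TATAAA was in all 12 promoters of both families on V and X and in none of the 4 of the bound H3-H4 family. The median GC content of the windows was 45.3% for histone genes and 35% for all genes, and it was 46.6% for the bound histone genes. The letters are descriptive, and what they bind was not tested.

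**Figure D4:**
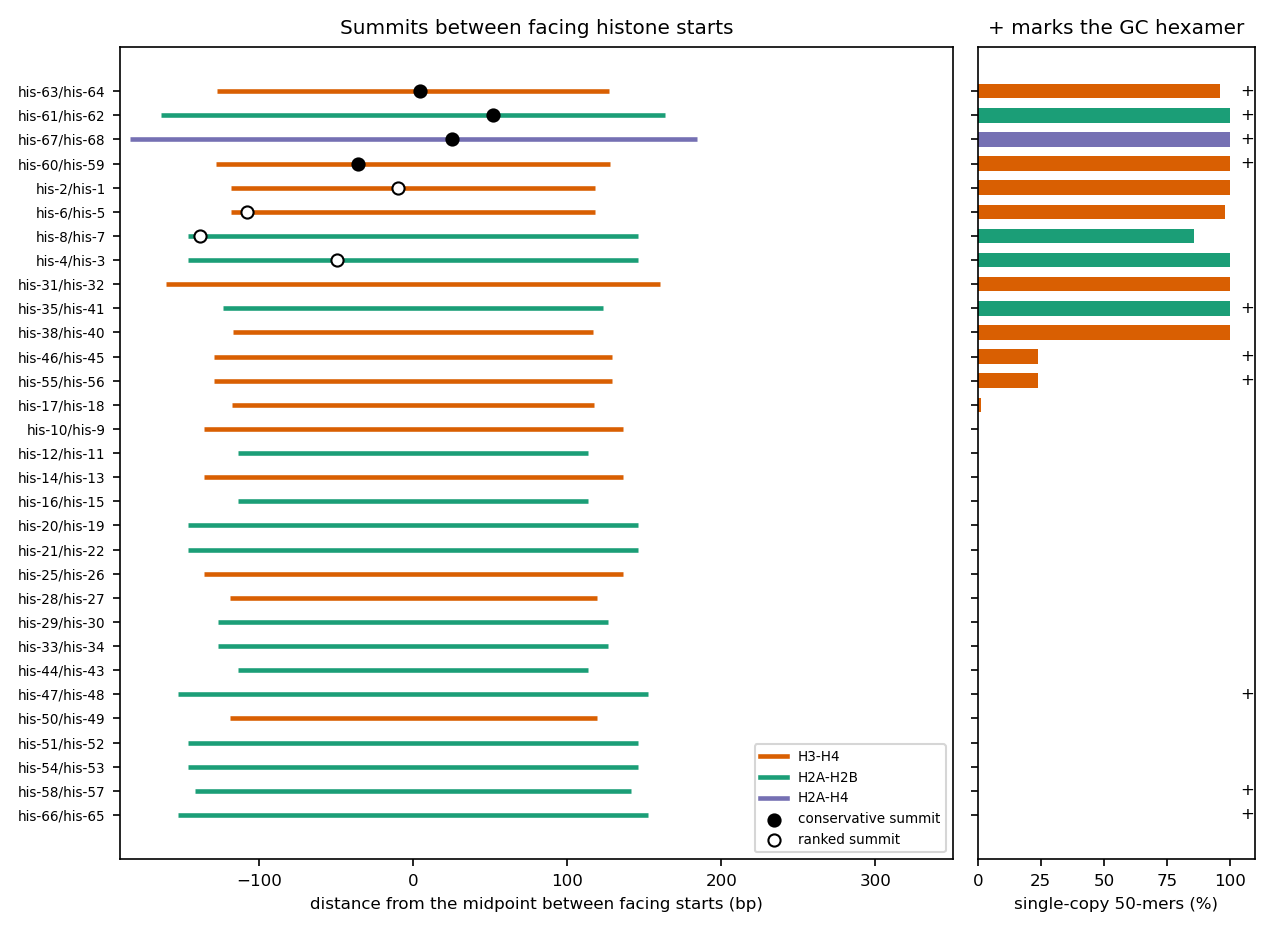
The 31 divergent histone pairs as lines from one start to the other, with distance from the midpoint in bp, and dots for the strongest ranked summit between the starts, filled where it is in the conservative list. At right, the single-copy share of the same sequence (%) and a plus where it holds the GC hexamer. The 4 filled dots sit in promoters that are 96.1% or more single-copy and carry the hexamer.

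By cluster, chaining genes whose starts were at most 10000 bp apart, there were 19 groups, 14 of them with 2 or more genes. A conservative summit occurred in 4. The group of his-61, his-62, his-60 and his-59 was bound at each of its 4 genes. The group of his-66, his-65, his-63 and his-64 was bound at 3. In the longest group, of 13 genes on II, his-42 was the 1 gene with a ranked summit; his-9 to his-16, his-25, his-26, his-43 and his-44 had none. All 6 genes of 1 group on V, his-49 to his-54, had none. In its neighbour of 8 genes, his-17 alone had one, with a signal of 20.8, while his-18 to his-22, his-27 and his-28 had none. The remaining genes without a ranked summit were his-29, his-30, his-32, his-33, his-34, his-45, his-55 and his-57. Of the 33, his-15, his-32 and his-34 were listed in replicate 1's own ranked list, with 18.1, 18.7 and 17.6, and 30 in neither replicate.

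By type, 3 of 17 H2A genes, 1 of 16 H2B genes, 3 of 15 H3 genes and 3 of 16 H4 genes were bound. The share over all protein-coding genes was 3.15%. None of the 5 H3.3 genes was bound, nor the H1 gene his-24, nor his-39 and his-73, short genes that RefSeq calls histone domain proteins. All 8 of these had a ranked summit, in windows at least 88.7% single-copy. Among all genes with 50% or more single-copy words, 76.3% had one and 3.2% were bound, so none bound among these 8 is near that share. The signals of the 8 ran from 12.9 at his-69 to 75.5 at his-72, percentiles 27.6 and 96.1 over all protein-coding genes. All were below those of the bound histone genes.

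Among the replacement histones, his-72, for H3.3, had the highest signal at 75.5, with 46.5 in replicate 1 and 30.3 in replicate 2. Its summit lay 119 bp downstream of an internal annotated start of the gene. The H3.3 gene his-71 had 52.8, with 20.5 and 27.7, and a summit 2 bp inside its start. The H3.3-like gene his-70 had 45.8, with 23.1 and 41.7, but 947 bp upstream and in sequence with 127 copies. The H3.3-like genes his-74 and his-69 were lower, at 30.3 and 12.9, and were listed in replicate 2 only. The H1 gene his-24 had 47.9, with 35.5 in replicate 1 and 15.9 in replicate 2. The H3.3 genes all stood below 78.3, the lowest signal among the bound histone genes.

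A small group on V, of the H2A gene his-35, the H2B gene his-41 and the H4 gene his-37, lacks the stem-loop near its genes' ends and was almost wholly single-copy. The signals were 30.9, 52.9 and 55.3 in that order. In replicate 1 they were 21.2, 25.4 and 31.1, and in replicate 2 19.4, 26.2 and 33.3, so both replicates gave one order. At his-37 the summit was 74 bp upstream of the start, and at the other genes it lay within the neighbouring gene. Of the other unbound genes, his-73 and his-48 stood low, at 24.4 and 27, and his-47 at 19.1. The H2A gene his-3, the H2B genes his-4 and his-58, the H4 genes his-31 and his-46 and the short gene his-39 lay between 28.3, at his-58, and 46.6, at his-39.

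Genes that work with histones were compared from lists drawn up by function, with earlier results of these data known. Across all protein-coding genes, 3.15% were bound. Of 11 other histone genes, 2 were bound: hcp-3, for the centromeric H3, with 126.0, and the H1-like hil-4, with 99. Of 15 genes for histone chaperones and mRNA processing, 4 were bound. They were unc-85, an Asf1 chaperone, with 143.1, chaf-2, of chromatin assembly factor 1, with 136.0, nasp-2, a NASP-like chaperone, with 133.3 and lin-53, an RBBP4-like protein, with 120.1. Both replicates listed each of these 4, with 78.8 and 78.1 at unc-85 and 78.1 and 60.3 at chaf-2. Next among these 15 were hira-1, for the H3.3 chaperone HIRA, at 85.3 and chaf-1, of chromatin assembly factor 1, at 75.5, with no conservative summit. The stem-loop binding protein gene cdl-1, at 66.1, and the other Asf1 gene, asfl-1, with no ranked summit, are named for their function and were chosen, like hira-1 and chaf-1, after their values were seen.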

How the data were processed

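Peak positions, signals and IDR scores were taken from the lists the authors deposited for both replicates together and for each replicate. The deposited signal and IDR values are scores; per the labels they refer to assembly ce11. Which aligner and peak caller made them was not stated in the sources used here. The control library was not analysed here. The lists hold no read counts, so depth is unknown. Genes came from Ensembl release 115. That annotation gives 50 distinct names to the 72 genes, so each was named by the RefSeq symbol of its WormBase identifier, which differed for 22. For 69 genes the span is a multiple of 3, so starts are mostly starts of coding models. Types followed the RefSeq product. A summit is the peak's point source. Where windows overlap, genes share peaks, so genes and distinct summits were both counted. Percentiles rank the highest ranked signal over 19973 genes, with 0 for none. Single-copy words were counted on both strands of the genome. Copies were found with BLAST 2.17.0, and promoter families joined pairs at 70% identity or more in global alignment with Biopython 1.88. Other steps used Python 3.11.15, NumPy 2.4.6, pandas 2.3.3 and matplotlib 3.10.9. The window search and word counts were tested on simulated data. There is no contrast, so no test was made and results are counts beside all genes. The members, lists, motifs and families were chosen with earlier results of these data known. The genes named are those bound, the 10 next highest, the lowest 5, those with no ranked summit, the variants and lone genes, and, of the other histone and supply genes, those bound and the 4 of highest signal. Alternatives were other lists, each replicate, windows, gene assignment, single-copy sequence and pair or cluster distances. Those for single-copy windows and for nearby non-coding genes were added after seeing the data.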

Additional observations from a re-analysis of the deposited data

How the results depend on the processing

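Over 41 alternatives, 33 counts or medians stayed within 1.5 times of the reported count or within the 8.53 percentile points of SD between replicates. That limit is wide, since a fall of distinct summits from 6 to 4 stays within it. A pair distance of 500 bp could not change the count, because no histone pair had more than 368 bp between its starts. Bound genes fell to 6 and distinct summits to 3 when sites with a similar copy elsewhere were left out, which removes his-63/his-64, his-42 and his-65. With the authors' other thresholded list of both replicates, bound genes were 8, distinct summits 6 and divergent pairs with a summit 3. With 1 replicate's list alone, bound genes ranged from 7 to 9, distinct summits from 4 to 6, and divergent pairs with a summit were 3 in either. The median percentile of 37.8 depended most on the setting. It was 22.6 with a window of 500 bp upstream and 100 bp downstream, 48.8 with 2000 bp upstream, and 12.5 with each distinct top peak counted once. That last setting merged only genes that share a top peak and kept each of the 33 genes without one, giving 64 units. Its 12.5 is the percentile of a gene with no listed peak. The median percentile was 85.1 over the 18 genes whose top peak has no similar copy and 87.5 over windows with 50% or more single-copy words. With 1 replicate it ranged from 22.5 to 34.5. The cause was not tested. No paired analysis was possible because there is 1 group and no contrast. Depth is unknown, so an unlisted peak is not shown to be absent.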

Other observations

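Listed peaks near histone genes lay both inside and outside the shared promoters. Of 54 distinct ranked peaks in histone windows, 8 had a summit between facing starts, with a median signal of 68. A further 21 lay in a histone gene, with a median of 35.2, and 3 within 100 bp after one, with a median of 46.3. The other 22, with a median of 41.4, lay elsewhere in the windows. These places differ in length, and the share of the windows that each takes up was not counted. The counts therefore do not show that peaks favour or avoid any of them. One more conservative summit, with a signal of 101.0, lay 1282 bp upstream of the H4 gene his-56 and entered only the window of 2000 bp. The H4 gene his-56 itself had a ranked signal of 46.2, with 30.7 in replicate 1 and 14.8 in replicate 2, at a summit by the stem-loop of his-55.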
